A study of Mus musculus with 6 samples.

Results

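The genes described here are 43 mouse genes of meiosis, of the piRNA pathway and of germ cell development, measured in embryonic stem (ES) cells after knockdown of BRG1. They were taken from a list of symbols and matched to the gene name, the RefSeq accession or the full gene description of each array probe. The list holds 17 meiotic genes, 13 piRNA pathway genes and 13 germ cell regulators and other germ cell genes. Probes were found for 42 of the 43, with 62 probes among the 41174 on the array, and no probe matched Sohlh1. ES cells, pluripotent cells grown from the early embryo, had an F1 background of the strains 129 and C57BL/6. They received an siRNA against BRG1 or a scrambled control siRNA for 48 h, with 3 replicates in each group, and both groups therefore carried an siRNA. Total RNA, 500 ng for each labelling, was hybridised to single-colour Agilent arrays. Nothing in the labels tells whether the replicates of a group were grown apart, and p-values here therefore cover only the variation among these 6 arrays, part or all of which may be technical.

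Germ cells share much of their expression programme with pluripotent cells but add genes used mainly in the germ line. Meiotic genes build the cohesin-based axis of the chromosome, cut and repair DNA, and zip homologous chromosomes together with the synaptonemal complex. The piRNA pathway loads small RNAs onto PIWI proteins, which cleave transposon transcripts and direct DNA methylation to transposons in fetal male germ cells. In ES cells many of these genes are held low by DNA methylation and by a Polycomb complex, PRC1.6, whose DNA-binding subunits include E2F6 with its partner DP1 and MGA with its partner MAX. BRG1, encoded by Smarca4, is the ATPase of SWI/SNF complexes, which slide and evict nucleosomes.

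Arrays had between 60.9% and 75.3% of their spots well above background, and precision is limited by having 3 arrays in each group. Signals below are processed spot intensities after each array was brought to the same 75th percentile, 2083 units. They are compared between arrays for the same probe or the same set of probes and not between genes, since probes differ in how brightly they bind. The 3 Smarca4 probes had 65.8%, 54.7% and 66.2% of the control signal in BRG1 siRNA cells (limma adjusted p = 0.00365 for the gene). The 3 control arrays and BRG1 siRNA replicate 1 shared a slide and a scan, and BRG1 siRNA replicates 2 and 3 were on another slide.

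Hormad1, Stag3, Ddx4, Mael and Sycp1 were among the germ cell genes raised by BRG1 siRNA, and Piwil4 was lowered most, while most of the genes did not pass the test. Of the 42 genes with a probe, 31 were tested, because the scanner software marked their spot as well above background on all 3 arrays of 1 or both groups. Among these 31, BRG1 siRNA raised 9, or 29%, where 9.87% of all 17758 genes tested were raised (limma, Benjamini-Hochberg adjusted p under 0.05 over all genes). It lowered 4 of the 31, or 12.9%, close to the 13.4% of all genes that were lowered. The other 18 did not pass the test. All 3 BRG1 siRNA arrays lay above all 3 controls for 15 of the 31 genes, against 18.9% of all genes, and below them for 4, against 25.1% of all genes. The median log2 change was 0.15 over the tested members and -0.04 over all genes tested, and the members ranged from -1.31 to 0.67. Scaling on spike-in probes put the median of all genes at 0.16. Rises then made up 84.1% of all calls, against 42.3% without that scaling. It gave 15 raised and 2 lowered members, where 18.9% and 3.58% of all genes tested were raised and lowered. When every probe was fitted on its own, 8 of the 39 tested member probes were raised and 5 lowered, where 8.60% and 11.0% of all 26258 probes tested were raised and lowered. With slide as a block 4 members were raised and 3 lowered, and 477 and 915 of all genes (2.69% and 5.15%). Slide 2 held no control, so changes in that fit are those of BRG1 siRNA replicate 1 against the 3 controls. Leaving out 1 array gave 5 to 8 raised and 2 to 4 lowered members. Of all genes tested, 3.81% to 9.78% were then raised and 5.38% to 15.1% lowered. In a bulk culture, fewer cells that express a gene and less of its RNA in each cell cannot be told apart.

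**Figure D1:**
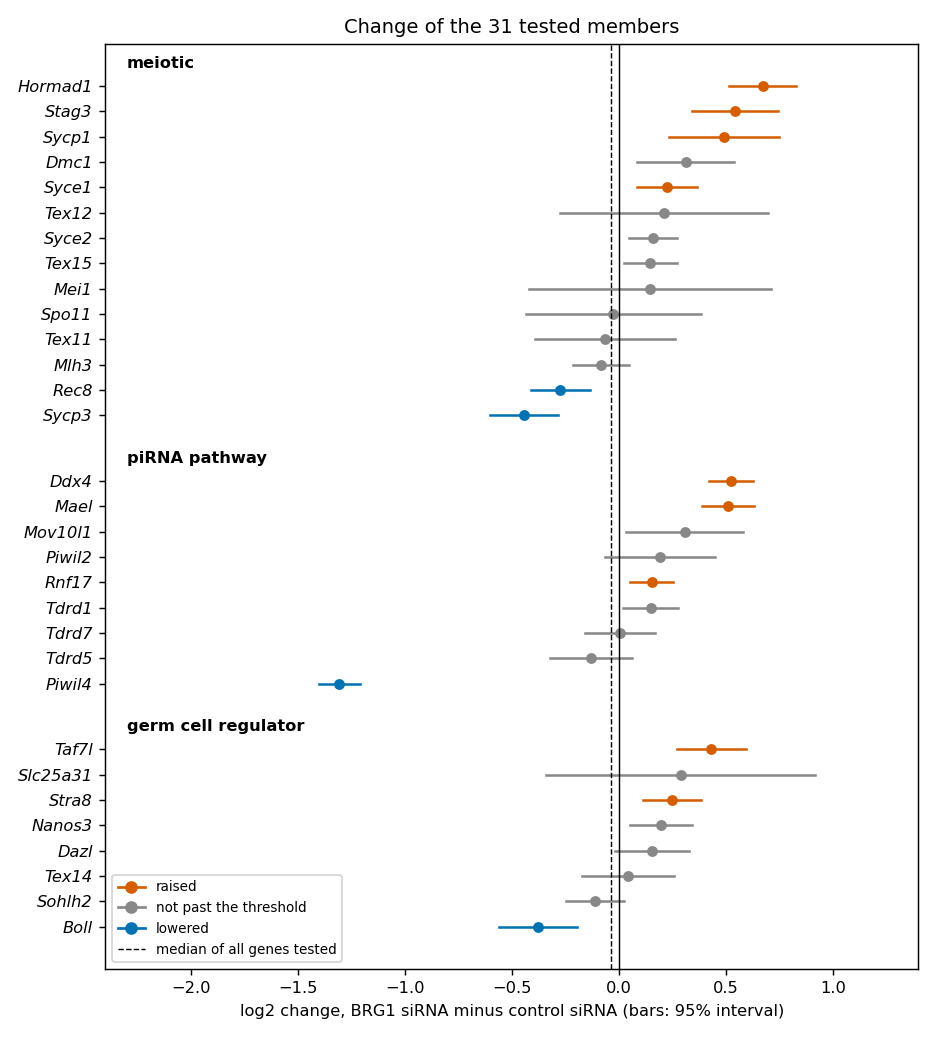
Log2 change of the 31 tested genes (x axis, BRG1 siRNA minus control siRNA), grouped as meiotic, piRNA pathway and germ cell regulator genes. Points are limma estimates from 3 against 3 arrays and bars their 95% intervals; the dashed line is the median of all genes tested, -0.04. Hormad1 stands highest at 0.67 and Piwil4 lowest at -1.31.

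**Figure D2:**
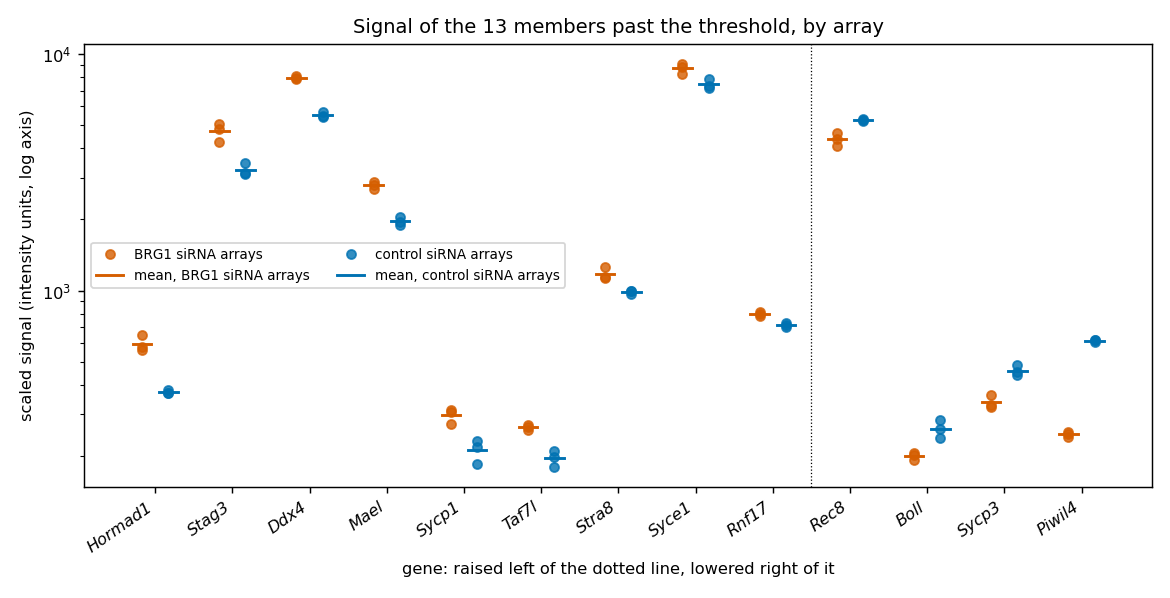
Scaled signal (log axis) of the 13 genes past the threshold on each array, BRG1 siRNA left and control siRNA right within a gene, with the mean as a bar. The 3 BRG1 siRNA points lie clear of the 3 control points for every gene shown, above them for 9 genes and below them for 4; heights of different genes are not comparable because each is a different probe.

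Promoter sequences are shown for the 6 genes whose calls rested least on the processing, 4 raised and 2 lowered, because the repressors named above are known to act at promoters of germ line genes. The windows run from 250 bases before the annotated start to 10 bases after it and come from RefSeq, GRCm38.p6, on the strand of the gene, 5′ to 3′. Capitals mark TTCCCGC or its shorter core TCCCGC, the E2F-type motif, and CACGTG, the E-box bound by MAX-type factors, on either strand. The reverse complement of TTCCCGC reads GCGGGAA.
Hormad1 promoter, chr3:95559427-95559686, plus strand: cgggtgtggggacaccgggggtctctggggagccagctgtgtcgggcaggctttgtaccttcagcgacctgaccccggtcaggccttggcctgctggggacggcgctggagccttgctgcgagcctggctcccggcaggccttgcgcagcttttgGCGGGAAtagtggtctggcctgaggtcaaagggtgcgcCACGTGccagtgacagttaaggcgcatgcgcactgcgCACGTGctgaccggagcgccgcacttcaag
Stag3 promoter, chr5:138280259-138280518, plus strand: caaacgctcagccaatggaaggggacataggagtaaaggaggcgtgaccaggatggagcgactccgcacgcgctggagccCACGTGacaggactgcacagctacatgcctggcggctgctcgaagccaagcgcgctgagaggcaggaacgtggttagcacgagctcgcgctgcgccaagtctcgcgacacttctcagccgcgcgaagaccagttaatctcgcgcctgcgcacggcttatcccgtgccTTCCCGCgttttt
Ddx4 promoter, chr13:112652301-112652560, minus strand: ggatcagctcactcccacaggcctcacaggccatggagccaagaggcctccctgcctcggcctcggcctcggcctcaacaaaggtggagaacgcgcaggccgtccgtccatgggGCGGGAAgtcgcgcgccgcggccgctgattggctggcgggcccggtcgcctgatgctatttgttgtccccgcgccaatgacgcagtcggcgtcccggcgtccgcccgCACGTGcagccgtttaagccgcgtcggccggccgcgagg
Mael promoter, chr1:166238735-166238994, minus strand: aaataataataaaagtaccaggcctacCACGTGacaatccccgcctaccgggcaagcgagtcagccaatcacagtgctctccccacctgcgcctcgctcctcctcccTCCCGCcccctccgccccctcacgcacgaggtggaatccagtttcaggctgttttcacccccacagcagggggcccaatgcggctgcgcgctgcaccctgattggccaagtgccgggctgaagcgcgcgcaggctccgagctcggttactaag
Sycp3 promoter, chr10:88459337-88459596, plus strand: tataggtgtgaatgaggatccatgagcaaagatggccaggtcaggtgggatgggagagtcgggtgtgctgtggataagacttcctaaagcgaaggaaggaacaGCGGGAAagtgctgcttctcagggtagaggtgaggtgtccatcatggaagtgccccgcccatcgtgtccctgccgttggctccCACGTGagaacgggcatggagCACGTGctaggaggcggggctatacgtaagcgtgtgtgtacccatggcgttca
Piwil4 promoter, chr9:14740663-14740922, minus strand: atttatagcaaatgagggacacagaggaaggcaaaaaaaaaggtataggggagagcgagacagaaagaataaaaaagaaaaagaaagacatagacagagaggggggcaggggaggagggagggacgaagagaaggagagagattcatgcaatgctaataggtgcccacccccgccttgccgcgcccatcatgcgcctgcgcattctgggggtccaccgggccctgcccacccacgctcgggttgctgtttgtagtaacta
Hormad1 has a TTCCCGC match on the minus strand 95 bases before its start and E-boxes 57 and 20 bases before it. The TTCCCGC of Stag3 spans the start itself, with an E-box 170 bases before it. Ddx4 has TTCCCGC 136 bases and an E-box 29 bases before its start, whereas Mael has the shorter TCCCGC at 143 bases and an E-box at 223 bases. The lowered Sycp3 carries both motifs too, TTCCCGC at 147 bases and E-boxes at 64 and 43 bases before the start. Neither motif occurs in the Piwil4 window.

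RefSeq promoters of 300 bases, 250 before and 50 after the start, were found for 37 of the 43 genes and not for Spo11, Tex11, Tex15, Piwil2, Tdrd6 and Rnf17. A gene was counted when any of its listed promoters held the motif on either strand. TCCCGC occurred in 15 of the 37 germ cell genes, or 40.5%, against 22% of the 27025 genes in the table. TTCCCGC, which contains TCCCGC, occurred in 11, or 29.7%, against 5.29% of all genes. CACGTG occurred in 17, or 45.9%, against 8.09%. Both TCCCGC and CACGTG were present in 9, or 24.3%, against 2.32%, counted only where both lay in the same listed promoter. The number of CG dinucleotides in a gene's most CG-rich listed promoter had a median of 18 over the germ cell genes and 8 over all genes of the table. Among the 8 raised genes with a promoter, 5 held TCCCGC, 6 held CACGTG and 5 held both. Of the 4 lowered genes, 3 held TCCCGC, 2 held CACGTG and 1, Sycp3, held both in the same promoter. Boll also held both motifs, but in different listed promoters. Among the 14 genes that did not pass the test, 6 held TCCCGC, 5 held CACGTG and 3 held both. Among the 10 genes with a promoter that were too dim to test, 1 held TCCCGC and 3 held CACGTG, with none holding both, and Sohlh1, which has no probe, held CACGTG alone. These counts are too small to order the groups and were not tested, and a match of letters does not show that a factor binds there.

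**Figure D3:**
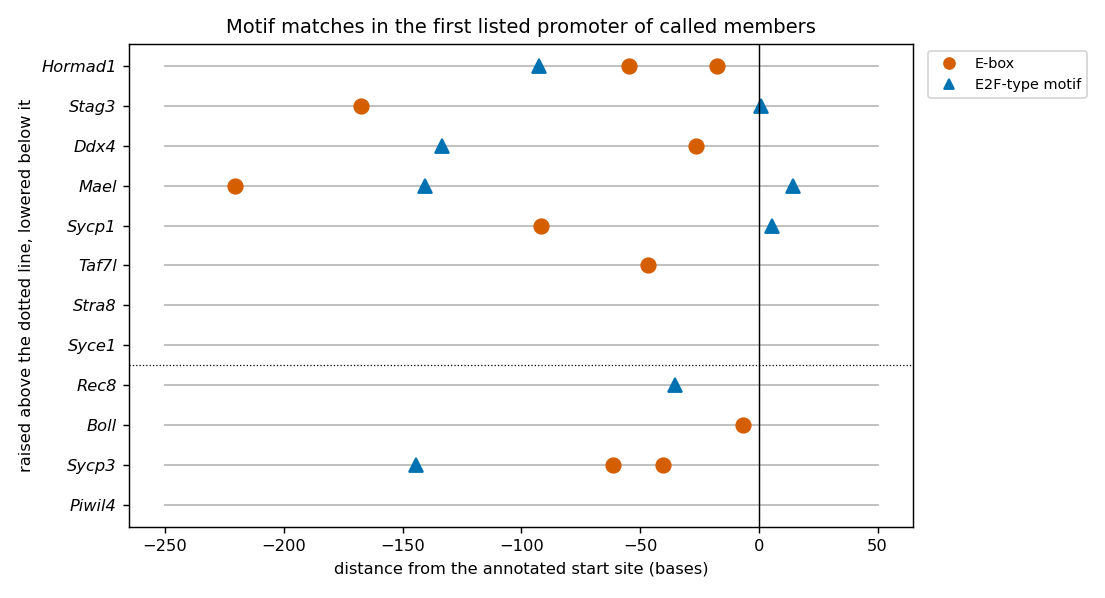
Motif matches in the first listed promoter of the called genes with a promoter, by distance from the annotated start (x axis, bases). Triangles are TCCCGC and circles CACGTG, either strand; genes above the dotted line were raised and those below it lowered. Hormad1, Stag3, Ddx4, Mael and Sycp1 carry both motifs, as does the lowered Sycp3, and Syce1, Stra8 and Piwil4 carry neither.

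Of the 17 meiotic genes, 14 were tested, and 4 were raised and 2 lowered. These are shares of 28.6% and 14.3%, against 9.87% and 13.4% of all genes tested. Hormad1, which marks unsynapsed chromosome axes and is the member with the largest rise, was read by a probe on chromosome 3 at 95454122 to 95454181 of mm7. Its signal was 647, 579.9 and 561 units on BRG1 siRNA replicates 1 to 3, against 370.3, 380.5 and 369.9 on control replicates 1 to 3. Every BRG1 siRNA array was above every control, at 1.59 times the control level on average, a change of 0.67 ± 0.063 (SE, log2; limma adjusted p = 0.00278). A second, dimmer Hormad1 probe read 82.1, 76.5 and 93.2 units in BRG1 siRNA cells and 86.9, 48.4 and 65 in control cells. The groups overlapped on that probe, and its change of 0.37 did not pass the test over probes (limma adjusted p = 0.288).

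Among genes of the meiotic cohesin ring, Stag3 was higher and Rec8 lower. Stag3, the meiotic stromal antigen subunit, had 5049, 4829 and 4263 units in BRG1 siRNA cells and 3108, 3451 and 3127 in control cells (probe on chromosome 5 at 137257699 to 137257758). Its groups did not overlap, with a change of 0.54 ± 0.081 (SE, log2; limma adjusted p = 0.00884). Rec8, the meiosis-specific kleisin that closes the ring, had 4087, 4359 and 4621 units in BRG1 siRNA cells and 5289.5, 5226 and 5266 in control cells (probe on chromosome 14 at 50492672 to 50492731, listed on the array as Rec8L1). All 3 BRG1 siRNA arrays were below the controls, which lay close together, and the change was -0.27 ± 0.055 (SE, log2; limma adjusted p = 0.0213). The other Rec8 probe had a change of -0.17 that did not pass the test over probes (limma adjusted p = 0.135).

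The synaptonemal complex genes were divided. Sycp1, the transverse filament that joins the paired axes, had 306, 313 and 272 units in BRG1 siRNA cells and 218, 232 and 185 in control cells (probe on chromosome 3 at 102647366 to 102648037). Its lowest BRG1 siRNA array was above its highest control, and the change was 0.49 ± 0.10 (SE, log2; limma adjusted p = 0.0238). Sycp3, the axial element protein, had 323, 328 and 362 units in BRG1 siRNA cells and 484, 439.9 and 454 in control cells (probe on chromosome 10 at 88027463 to 88030553). It was below the controls on every BRG1 siRNA array, at 73.5% of the control level, a change of -0.44 ± 0.064 (SE, log2; limma adjusted p = 0.0082). Syce1, a central element protein, had 8259, 8791 and 9056 units in BRG1 siRNA cells and 7809.6, 7169.7 and 7338 in control cells (probe on chromosome 7 at 137194617 to 137194676). That rise was smaller, 0.23 ± 0.057 (SE, log2; limma adjusted p = 0.0395), again without overlap. Syce2, a further central element protein, had 36349.7, 37476 and 35493 units in BRG1 siRNA cells and 31456, 32794 and 33516 in control cells. Its arrays did not overlap either, but the change of 0.16 ± 0.045 (SE, log2; limma adjusted p = 0.0539) missed the threshold. Tex12, the central element partner of Syce2, spanned 83.8 to 109 units in BRG1 siRNA cells and 69.4 to 109.9 in control cells, with a change of 0.21 ± 0.20 (SE, log2; limma adjusted p = 0.482). Another Tex12 probe, too dim to test, read 29.3, 175 and 71 units in BRG1 siRNA cells and 20.7, 13.5 and 16.4 in control cells. Its groups did not overlap, but it was well above background on only 2 BRG1 siRNA arrays and on no control. A further Tex12 probe was at background on every array.

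No recombination gene passed the test (limma). The unadjusted limma p was under 0.05 for 2 of the 6 tested, Dmc1 and Tex15. It was also under 0.05 for 6729 of all 17758 genes tested. Dmc1, the meiotic strand exchange protein, had 149.8, 152 and 178 units in BRG1 siRNA cells and 134, 118 and 134 in control cells. The groups did not overlap, and the change was 0.31 ± 0.091 (SE, log2; limma adjusted p = 0.06). Tex15, needed for meiotic double-strand break repair and also tied to piRNA-guided silencing, had 465, 429 and 434 units in BRG1 siRNA cells and 400.0, 389 and 411 in control cells, a change of 0.15 ± 0.050 (SE, log2; limma adjusted p = 0.0872) without overlap. Spo11, the topoisomerase-like protein that makes the breaks, had 161, 201 and 139 units in BRG1 siRNA cells and 196, 150.1 and 162 in control cells. Its groups overlapped widely, with a change of -0.03 ± 0.16 (SE, log2; limma adjusted p = 0.929). Mei1, Mlh3 and Tex11, which act in break formation, crossover resolution and crossover formation, had changes of 0.14, -0.08 and -0.06 (log2), all with overlapping arrays. Msh4, Msh5 and Sycp2 were too dim to test, and the 14 tested genes had a median change of 0.15.

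Of the 13 piRNA pathway genes, 9 were tested, with 3 raised, 1 lowered and a median change of 0.15. The raised share was 33.3% and the lowered share 11.1%, against 9.87% and 13.4% of all genes tested. Piwil4, also called Miwi2, is the nuclear PIWI protein of fetal prospermatogonia that directs transposon methylation, and it changed most of all 31 genes. Its signal was 249, 242 and 253 units in BRG1 siRNA cells and 609, 616 and 616 in control cells (probe on chromosome 9 at 14537500 to 14537559). Replicates of a group lay close together, and BRG1 siRNA cells had 40.4% of the control level, a change of -1.31 ± 0.039 (SE, log2; limma adjusted p = 0.00044). The second Piwil4 probe was at background on all 6 arrays, with 13.5, 17 and 17.3 units in BRG1 siRNA cells and 47.9, 11.6 and 24.3 in control cells, so the fall rests on 1 probe. The cytoplasmic PIWI protein Piwil2, by contrast, had 948, 986 and 1220.3 units in BRG1 siRNA cells and 887, 905 and 949 in control cells. Its groups overlapped, and the change of 0.19 ± 0.10 (SE, log2; limma adjusted p = 0.234) did not pass. Piwil1, the PIWI protein of later spermatocytes and spermatids, was too dim to test.

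Ddx4 and Mael rose by similar factors. Ddx4, the Vasa RNA helicase of germ granules, had 7823, 8080.4 and 7929 units in BRG1 siRNA cells and 5710.4, 5454 and 5404 in control cells (probe on chromosome 13 at 109754306 to 109754365). BRG1 siRNA arrays were all higher, 1.44-fold on average, a change of 0.52 ± 0.042 (SE, log2; limma adjusted p = 0.00199). Mael, the maelstrom protein of transposon silencing, had 2694, 2807 and 2889 units in BRG1 siRNA cells and 2042, 1902 and 1944 in control cells (probe on chromosome 1 at 166172164 to 166172223). It was 1.42-fold higher with no overlap, a change of 0.51 ± 0.049 (SE, log2; limma adjusted p = 0.00289). Rnf17, a RING finger and Tudor domain protein of germ cells, had 811, 799 and 779.6 units in BRG1 siRNA cells and 733, 717 and 699 in control cells (probe on chromosome 14 at 51302345 to 51302404). This was the smallest rise that passed, 0.15 ± 0.041 (SE, log2; limma adjusted p = 0.0458), and over probes it no longer passed (limma adjusted p = 0.0566), while the second Rnf17 probe changed by 0.12 (limma adjusted p over probes = 0.594).

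None of the 3 tested Tdrd genes, whose Tudor domain proteins bind methylated PIWI proteins, passed the test (limma). Of them 1, Tdrd1, had an unadjusted limma p under 0.05, as did 6729 of all 17758 genes tested. Tdrd1 had 1569.9, 1697 and 1655 units in BRG1 siRNA cells and 1544, 1427 and 1471 in control cells, higher on every BRG1 siRNA array with a change of 0.15 ± 0.052 (SE, log2; limma adjusted p = 0.0952). Tdrd5 and Tdrd7 had overlapping arrays and changes of -0.13 and 0.00 (log2). Mov10l1, the helicase that hands precursors to piRNA biogenesis, had 202, 207 and 209.9 units in BRG1 siRNA cells and 197, 158 and 149 in control cells. Its groups did not overlap, with a change of 0.31 ± 0.11 (SE, log2; limma adjusted p = 0.0991). Tdrd6, Tdrd9 and Asz1 were too dim to test.

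Of the 13 germ cell regulators and other germ cell genes, 8 were tested, with 2 raised, 1 lowered and a median change of 0.18. The raised share was 25% and the lowered share 12.5%, against 9.87% and 13.4% of all genes tested. Taf7l, a germ cell paralogue of a general transcription factor subunit, had 257, 270.3 and 265 units in BRG1 siRNA cells and 209.7, 199 and 180.5 in control cells (probe on chromosome X at 129179546 to 129179605). It was higher on every BRG1 siRNA array, 1.35-fold on average, a change of 0.43 ± 0.065 (SE, log2; limma adjusted p = 0.00911). A second Taf7l probe read 189.8, 157 and 186 units in BRG1 siRNA cells and 166, 126 and 145 in control cells, with overlap, and its change of 0.29 did not pass (limma adjusted p over probes = 0.164). Stra8, the retinoic acid target that starts meiosis, had 1142, 1131 and 1257 units in BRG1 siRNA cells and 1001, 970.4 and 998 in control cells (probe on chromosome 6 at 34870433 to 34870492). It rose without overlap by 0.25 ± 0.055 (SE, log2; limma adjusted p = 0.0275).

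Boll and Dazl, RNA-binding proteins of the same family, were placed differently. Boll, which acts late in male meiosis, had 193, 203 and 206 units in BRG1 siRNA cells and 285, 260.0 and 239 in control cells (probe on chromosome 1 at 55547419 to 55547478). It was lower on every BRG1 siRNA array, at 77% of the control level, a change of -0.38 ± 0.074 (SE, log2; limma adjusted p = 0.0194). The second Boll probe was lower too, with 138, 135 and 147 units in BRG1 siRNA cells and 173, 197 and 189 in control cells and a change of -0.41 (limma adjusted p over probes = 0.0129). Dazl, which licenses germ cells for differentiation, had 362, 366 and 317 units in BRG1 siRNA cells and 325, 309 and 304 in control cells. Its arrays overlapped, and the change of 0.15 ± 0.070 (SE, log2; limma adjusted p = 0.171) did not pass. The difference between the changes of Boll and Dazl was not tested.

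The remaining regulators gave no call. Nanos3, a translational repressor that protects primordial germ cells, had 465, 442 and 469 units in BRG1 siRNA cells and 418, 374 and 409 in control cells, without overlap and with a change of 0.20 ± 0.058 (SE, log2; limma adjusted p = 0.0624). Sohlh2, a basic helix-loop-helix factor of spermatogonia and oocytes, had 1101, 1091 and 1192 units in BRG1 siRNA cells and 1244, 1164 and 1244 in control cells. These overlapped, with a change of -0.11 ± 0.055 (SE, log2; limma adjusted p = 0.204). Slc25a31, the germ cell ADP/ATP carrier, spread over 142.5 to 212 units in BRG1 siRNA cells and 109.8 to 194 in control cells, a change of 0.29 ± 0.25 (SE, log2; limma adjusted p = 0.456). Tex14, a component of intercellular bridges, changed by 0.04 (log2) with overlapping arrays. Nanos2, Brdt, Figla and Nobox were too dim to test.

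The 11 genes too dim to test had signals between 9.04 and 239 units over all arrays. Nanos2, Brdt, Nobox and Msh4 were well above background on none of the 6 arrays. The others passed on 1 to 4 arrays, without all 3 of a group. The highest value, 239 units for Msh5 on BRG1 siRNA replicate 3, stood against 88.6 and 38.5 units on the other BRG1 siRNA arrays and 81.2, 23.2 and 52.2 in control cells. A gene below background in both groups gives no estimate of a change.

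The calls were then set against the slides. For Piwil4 the difference from the control mean was -1.30 on slide 1 and -1.31 on slide 2, and its call held under all 23 alternative settings. For Hormad1 it was 0.79 on slide 1 and 0.61 on slide 2, for Stag3 0.65 on slide 1 and 0.49 on slide 2 and for Sycp3 -0.51 on slide 1 and -0.41 on slide 2. Ddx4 and Mael were also alike on both slides, at 0.50 on slide 1 and 0.54 on slide 2 for Ddx4 and 0.46 on slide 1 and 0.54 on slide 2 for Mael. All 5 of these genes lost their call in 1 setting, slide 1 alone, which sets 1 BRG1 siRNA array against 3 controls and assumes that it varies as they do (limma adjusted p between 0.0509 for Hormad1 and 0.0752 for Sycp3). Taf7l, at 0.39 on slide 1 and 0.45 on slide 2, lost it there too (limma adjusted p = 0.131) and with slide as a block (0.0772). All 13 genes kept their direction on both slides, which follows from their groups not overlapping and is no separate check. Both values of a gene are taken from the same controls, those of slide 1.

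The other 6 calls were each lost in 7 to 17 of the 23 settings, and slide 1 alone was one of these for each gene. With slide as a block Rec8 kept its call, and Sycp1, Boll, Rnf17, Stra8 and Syce1 missed the threshold (limma adjusted p = 0.105, 0.0795, 0.126, 0.167 and 0.234). Sycp1 also missed it without BRG1 siRNA replicate 1 or 2 or control replicate 1 or 3 (limma adjusted p of 0.0794, 0.0874, 0.0588 and 0.058). Rec8 missed it without BRG1 siRNA replicate 2 or any 1 control, with adjusted p between 0.0654 and 0.0862 (limma), and with spike-in scaling its change was -0.08 (adjusted p = 0.484) and with median scaling -0.22 (0.192). Boll missed it without BRG1 siRNA replicate 1 or 2 or control replicate 2, with adjusted p between 0.0674 and 0.0753 (limma). With spike-in scaling the change of Boll was -0.18 (limma adjusted p = 0.139) and with median scaling -0.32 (0.0654). Sycp3, at -0.25 with spike-in scaling, kept its call. Stra8 missed it without any 1 array other than BRG1 siRNA replicate 3, with adjusted p between 0.0601 and 0.101 (limma). Syce1 missed it whichever array was left out, with adjusted p between 0.052 and 0.136 (limma). Rnf17 missed it whichever array was left out, with adjusted p between 0.0509 and 0.166 (limma), and in 17 of the 23 settings in all.

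**Figure D4:**
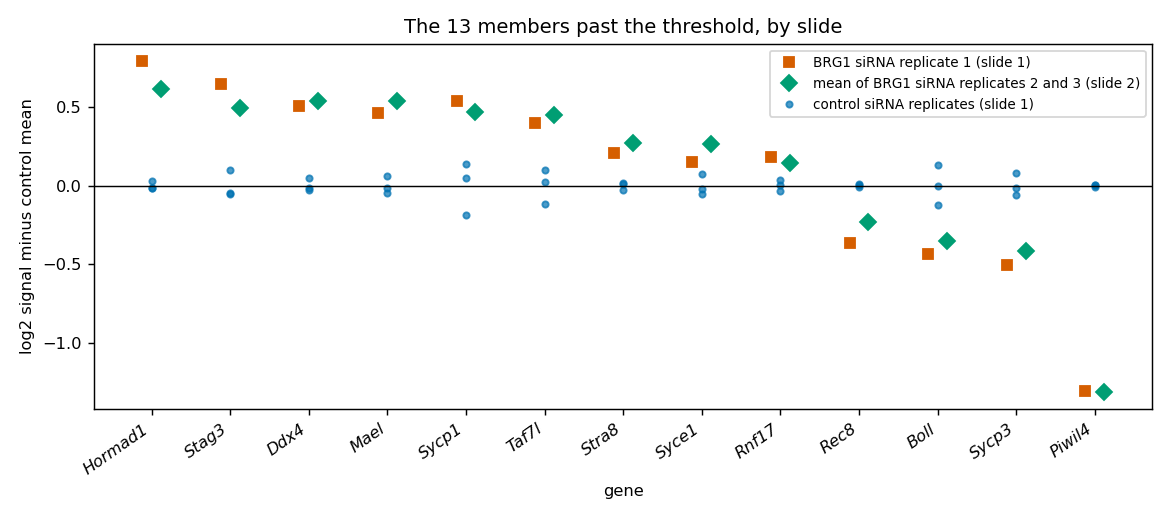
Log2 signal minus the control mean for the 13 called genes (y axis). Squares are BRG1 siRNA replicate 1, on the slide of the controls, diamonds the mean of BRG1 siRNA replicates 2 and 3 on the other slide, and small dots the 3 controls. Squares and diamonds lie on the same side of 0 for every gene, which follows from the groups not overlapping. For Piwil4 they lie at -1.30 and -1.31.

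Further genes of the same pathways, and some related to them, were counted to place the members. Of 19 tested meiosis genes outside the list, 1 rose and 1 fell, with a median of 0.02. As shares these are 5.26% in each direction, against 9.87% raised and 13.4% lowered among all genes tested. Zcwpw1, a reader of histone methylation at meiotic break sites, had 1119, 1077 and 1060.1 units in BRG1 siRNA cells and 642, 603 and 604 in control cells, a change of 0.82 ± 0.047 (SE, log2; limma adjusted p = 0.00114). Hormad2, the relative of Hormad1, had 146, 144 and 144 units in BRG1 siRNA cells and 184, 160.3 and 181 in control cells, a change of -0.28 ± 0.063 (SE, log2; limma adjusted p = 0.0309). Hormad1 and Hormad2 thus changed in opposite directions, and the difference between them was not tested.

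Of 11 tested piRNA pathway and related genes outside the list, with Mov10 and Ddx25 among the related ones, 4 rose and 4 fell, with a median of 0.20. That is 36.4% in each direction, against 9.87% and 13.4% of all genes tested. Mov10, the broadly expressed relative of Mov10l1, rose most, with 16378, 17323 and 18587 units in BRG1 siRNA cells and 9389.8, 7937 and 8510.1 in control cells, 2.03-fold higher (limma adjusted p = 0.00201). Tdrkh, a mitochondrial Tudor protein of piRNA trimming, and the helicase Ddx25 rose by 0.26 and 0.25 (log2; limma adjusted p = 0.00695 and 0.00977). The lowered genes were led by Tdrd12, a Tudor domain protein of secondary piRNA production, which had 27627, 28204 and 29722 units in BRG1 siRNA cells and 38314, 35929.7 and 37472 in control cells, a change of -0.39 ± 0.049 (SE, log2; limma adjusted p = 0.00566). Exd1, a partner in PIWI-guided slicing, and Tex19.1, which restrains transposons in germ cells, had changes of -0.32 and -0.30 (limma adjusted p = 0.0157 and 0.00959).

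Lists from other germ cell stages were mixed. Of 10 tested primordial germ cell genes, 4 rose, led by Lin28a, Tfap2c and Ifitm3 at 0.34, 0.30 and 0.27, and 2 fell, the receptor Kit at -0.64 and the RNA-binding protein Dnd1 at -0.40, with a list median of 0.13. Of 5 tested genes listed as spermatogonial, Dmrt1 rose by 0.39 and Uchl1 and Kdm1b changed by -0.60 and -0.21. The list median of -0.21 is the value of Kdm1b itself. Of 3 tested oocyte genes, the egg coat gene Zp3 and the maternal effect gene Ooep rose by 0.51 and 0.38, with a median of 0.38. None of 5 tested spermatid genes passed in limma, with a median of -0.10, although Prm1, Prm2, Tnp1 and Tnp2 were above background on all arrays. The unadjusted limma p was under 0.05 for 2 of the 5, Prm1 and Crem, and for 6729 of all 17758 genes tested. Values in these lists are log2 changes from the same fit, and with 3 to 10 tested genes in a list their counts are given as a description beside the 9.87% raised and 13.4% lowered of all genes.

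Repressors known to act at germ line genes were all measurable, and 6 of the 24 tested rose and 2 fell, with a median of 0.01. The shares were 25% and 8.33%, against 9.87% and 13.4% of all genes tested. The PRC1.6 subunit L3mbtl2 rose by 0.31, the corepressor Trim28 by 0.29 and the histone methyltransferase Setdb1 by 0.28 (log2; limma adjusted p = 0.0445, 0.0113 and 0.00861). Yaf2, a Polycomb subunit, and the DNA methyltransferase Dnmt3a had changes of -0.39 and -0.25 (limma adjusted p = 0.00428 and 0.00951). E2f6, Mga, Max, Pcgf6, Dnmt1 and Dnmt3b did not pass the test. Of these, E2f6 and Dnmt3b lay below all controls on every BRG1 siRNA array, as did 25.1% of all genes tested. Their changes were -0.16 and -0.11 (log2; limma adjusted p = 0.0754 and 0.0990). The arrays of Mga, Max, Pcgf6 and Dnmt1 overlapped.

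**Figure D5:**
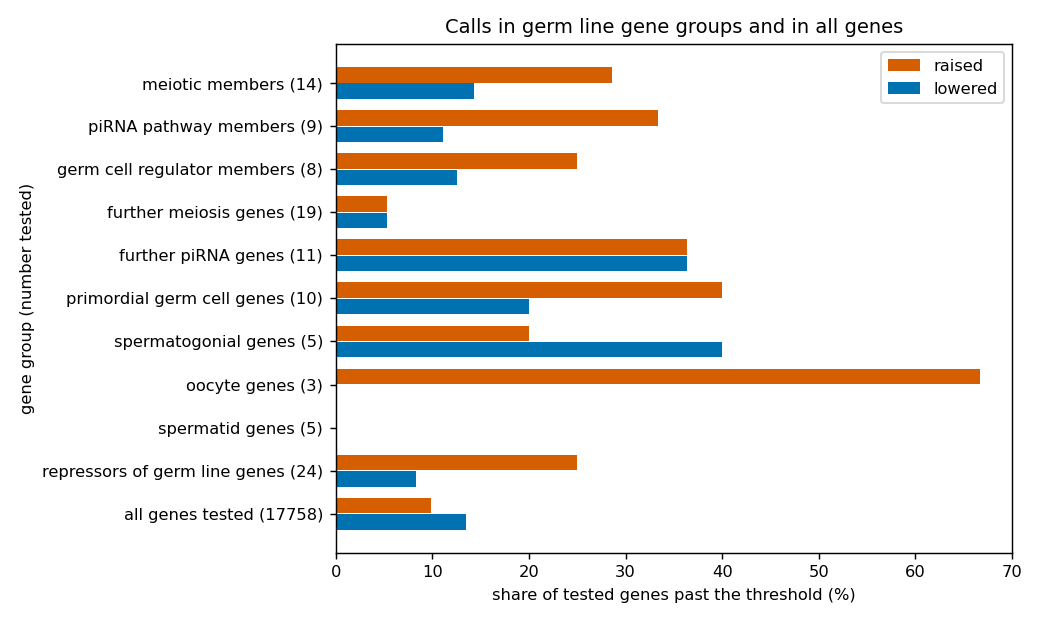
Share of tested genes that were raised or lowered (x axis, percent) in the 3 classes of members, in further germ cell gene lists, in repressors of germ line genes and in all genes tested, with the number tested in brackets. Raised shares are 28.6%, 33.3% and 25% in the meiotic, piRNA and regulator classes and 9.87% in all genes. Lowered shares in these classes are 14.3%, 11.1% and 12.5%, near the 13.4% of all genes. Lists of 3 to 5 genes can move far with 1 gene.

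Markers of cell types moved beside these changes. The ES cell markers Pou5f1, Sox2 and Nanog were above background on every array, and of 9 tested markers 3 rose, Utf1, Nanog and Klf4 at 0.43, 0.41 and 0.34, while Pou5f1 had a change of -0.33. Sums over a list weigh its brightest probes most, here those of Dppa5a and Zfp42. The ES cell markers summed to 956386 to 995890.2 units in BRG1 siRNA cells and 949029 to 960635 in control cells. Of 5 tested two-cell-like genes, which mark a rare ES cell state resembling the two-cell embryo, 4 rose and 0 fell, with a median of 0.50. Zscan4c, which defines that state and has near-identical gene copies that may share its probe, had 4709, 4515 and 4052 units in BRG1 siRNA cells and 2203, 2166 and 2168 in control cells, and the list, of which Zscan4c gives the largest part, summed to 6968 to 7380.3 units in BRG1 siRNA cells and 3812 to 4185 in control cells. Of 12 fibroblast markers, all tested, 7 fell and 2 rose, with a median of -0.28 and sums of 26154 to 28424 units in BRG1 siRNA cells and 40295 to 44757 in control cells. Among them Col1a1 changed by -0.36, S100a4 by -1.09 and Fn1 by -0.81, whereas Mgp rose by 1.17. Of 8 tested gonadal somatic markers, Wt1 fell to 384, 386 and 407 units in BRG1 siRNA cells, against 896, 899 and 931 in control cells, and none rose. That list had a median of -0.09 and sums of 3371 to 3523 units in BRG1 siRNA cells and 3826 to 4227 in control cells, with Amh and Inha too dim to test. As shares of tested genes, 33.3% of the ES cell markers rose and 11.1% fell, and 80% and 0% of the two-cell-like genes. Of the fibroblast markers 16.7% rose and 58.3% fell, and of the gonadal somatic markers 0% and 12.5%. Among all genes tested 9.87% rose and 13.4% fell, so the lowered share of the gonadal markers was close to that of all genes. The part of these cell types in the changes of the germ cell genes was not tested.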

How the data were processed

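Spot intensity in the deposited files was extracted with Agilent Feature Extraction, version 9.5.3.1 per the file headers and 9.5 per the submitters' processing notes. The headers also name array design 014868 and the mm7 build. The processed signal in them is background-subtracted within an array and not scaled between arrays. The deposited value table, also an intensity, equalled it (largest difference 0; column medians 161.8 to 185.5), so its scale is linear and uncentred and it has no ratio direction. RNA came from 3 BRG1 siRNA and 3 control siRNA samples, grouped from the labels.

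Here log2 of the processed signal minus each array's 75th percentile was fitted with limma 3.58.1 (R 4.3.3, lmFit and eBayes, two-sided), with Benjamini-Hochberg adjustment over 17758 genes and a threshold of 0.05. Control spots and outlier spots were left out. The probe of highest mean signal stood for a gene, and testing needed it to be well above background throughout 1 or both groups. Of the 62 probes, 55 matched by gene name, 6 by RefSeq accession (Rec8, Dmc1 and Sycp2, under other names on the array) and 1 by description (Tex14). No mm7 annotation was used, so probes are placed by coordinate only. The members, the lists and the alternatives were chosen with earlier results of these data known. Named genes are called members, the 2 brightest members of each class and the leading called genes of each list; the other members are given to account for the whole list. The script was tested on simulated data. The alternatives covered background correction, scaling, filters, slide, replicate block, probe summary, variance model, array weights, the value table and each array left out.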

Additional observations from a re-analysis of the deposited data

How the results depend on the processing

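No tested member reversed a called direction under the 23 alternatives. Of the single-member values, 611 stayed on their side of the threshold, 72 fell short of it and 30 newly passed. Under the alternatives that moved a count by more than 1.5 times, the numbers of raised and lowered members and of all raised and lowered genes were as follows, against 9, 4, 1752 and 2387. Median scaling gave 7, 2, 833 and 901. Spike-in scaling gave 15, 2, 3358 and 635 with a median over members of 0.35. No filter on dim probes gave 5, 2, 697 and 1043. Slide as a fixed block, where changes are those of BRG1 siRNA replicate 1 against the controls, gave 4, 3, 477 and 915 with a median of 0.0853. Slide 1 alone gave 0, 1, 37 and 22. Array weights gave 15, 6, 3395 and 4819. Replicate numbers did not pair the arrays (correlations of same-numbered deviations -0.31, 0.11 and -0.02), and the replicate block gave 6, 2, 788 and 1157. Leaving out each array in turn gave 5 to 8 raised members, 2 to 4 lowered members, a median of 0.12 to 0.18, and 681 to 1737 raised and 960 to 2676 lowered genes. Raised members fell to 5 without BRG1 siRNA replicate 1, BRG1 siRNA replicate 2 or control replicate 3, and lowered members to 2 without BRG1 siRNA replicate 2 or control replicate 2. The cause was not tested. Signal over background limits the result for the 11 dim members.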
